A study of Mus musculus with 16 samples.

Results

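Macrophages of normal mouse pancreas were compared between cells that carry a mark of Flt3-Cre history (YFP+) and cells that do not (YFP-). The comparison takes every array whose source is normal pancreas, 3 YFP+ and 3 YFP-, which is 6 of the 16 arrays of the series, and all 24168 genes that passed a filter on dim probes. The other 10 arrays are macrophages of pancreatic tumors, 5 YFP+ and 5 YFP-. The cells were sorted by flow cytometry straight into lysis buffer, and their RNA was amplified, labelled with Cy5 and hybridised to one-color Agilent mouse arrays. Per the labels, all mice were female, on the C57/B6 background and 8 to 10 weeks old. No genotype is given for a sample. The series names wild-type, KPC and FLT3-CRE/LSL-YFP mice, and since the sort is on YFP, both populations are taken here to come from FLT3-CRE/LSL-YFP mice. A treatment text that speaks of implanted tumors stands on the normal pancreas samples too, so what was done to these mice is unclear from the labels. The arrays are called by the number in their titles, 23912, 23916 and 23917, of which each population has one. The labels do not say that this number is a mouse or that the samples came from separate mice. The p-values thus measure a spread between samples, pooled in the fit over all 16 arrays, the tumor arrays included. The spread of the normal arrays alone can differ from it, and 3 arrays a population limit the precision.

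Flt3 is a receptor of early multipotent blood progenitors. In mice with Flt3-driven Cre and a lox-stop-lox YFP reporter, cells that pass through a Flt3-expressing progenitor switch YFP on and keep it in all their descendants. YFP therefore marks descendants of such progenitors, among them blood monocytes and the macrophages that monocytes give rise to, and many tissue macrophages seeded before birth lack it. The mark is a record of ancestry: it does not require Flt3 to be expressed in the macrophage, and a cell in which Cre did not act is YFP- whatever its origin.

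All 18 genes of a macrophage identity list were well above background on every array of both populations. The mean log2 level of this list, where 0 is the 75th percentile of an array, was 4.13, 4.50 and 4.42 in YFP+ and 3.88, 4.65 and 4.74 in YFP- (23912, 23916 and 23917 in this order, here and below). Both sorted populations were thus macrophages by these markers. Genes of pancreatic exocrine (acinar) cells were bright as well: 33 of 33 tested were well above background on all YFP- arrays and 32 on all YFP+ arrays. The share of spots with signal well above background ran from 67.6% to 75.4% over these arrays. Both arrays of 23912 stood apart from the others. Their mean level of 32 tissue-resident macrophage genes was 1.27 in YFP+ and 1.18 in YFP-, against 2.14 to 2.65 and 2.89 to 3.01 on the other arrays. Their mean level of 24 proliferation genes was -0.05 and -0.03, against -0.92 and -0.60 in the other YFP+ arrays and -1.49 and -1.40 in the other YFP- arrays. The 6 arrays lay on 4 slides, and only slides 2 and 3 held both populations. Slide 2 carried YFP+ 23912 with YFP- 23917, and slide 3 carried YFP+ 23917 with YFP- 23912. Differences within these slides rest on 1 array a population and are given below for lists and for the genes described at length.

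The threshold, an adjusted p under 0.05 with limma and Benjamini-Hochberg adjustment, was passed by 5 genes. They are 0.0207% of the genes tested, 2 of them higher in YFP+ (0.00828%) and 3 lower (0.0124%). Without adjustment, 1847 genes (7.64%) had a p under 0.05, 1080 higher (4.47%) and 767 lower (3.17%). The median difference over all genes was -0.10 on the log2 scale. Each of the 4 genes named here was below background in one population. Their probe sequences follow, 60 bases each, because the calls rest on 1 probe a gene and because Cstdc4 has close relatives. In the Stfa3 probe the capitals mark the 22 bases that it shares with the Cstdc4 probe.
Cstdc4: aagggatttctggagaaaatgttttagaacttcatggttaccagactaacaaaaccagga
Stfa3: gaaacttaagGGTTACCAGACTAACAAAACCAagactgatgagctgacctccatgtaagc
Gm9733: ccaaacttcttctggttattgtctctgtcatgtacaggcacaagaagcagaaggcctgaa
The probes of Cstdc4, Stfa3 and Gm9733 map to chr16:36188043-36188102, chr16:36450693-36450752 and chr3:15296551-15296610 on build mm9, per the file headers.

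Cstdc4 rose in YFP+ macrophages. It belongs to the stefins, small intracellular inhibitors of cysteine proteases such as the lysosomal cathepsins, and lies in the stefin cluster of chromosome 16. Its levels were -1.96, -3.37 and -3.68 in YFP+ and -6.64, -5.75 and -5.54 in YFP-. All 3 YFP+ arrays were well above background and none of the YFP- arrays was, so the groups did not overlap. The log2 difference was 2.97 (SE 0.44, limma adjusted p = 0.0397). Counting a population below background at the array's lowest signal that was well above it, the level was at least 3.07-fold higher in YFP+. The difference was 3.59 within slide 2 and 2.96 within slide 3.

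Of the stefins and cystatins, a family list with 12 tested genes, 4 were higher in YFP+ and the median difference was -0.14, a sign that turned under 9 of 25 alternatives (0.00 with quantile normalization). Besides Cstdc4 no member passed the threshold. Stfa3, whose probe shares the run shown above, was at -3.89, -3.79 and -4.09 in YFP+ and at -3.52, -3.73 and -3.62 in YFP-, a difference of -0.30 (limma adjusted p = 0.874) with YFP+ below YFP-. The Stfa2 probe was below background on all YFP+ arrays and above it on 2 YFP- arrays, with a difference of -1.79 (limma adjusted p = 0.168). Cross-hybridisation among these near copies was not tested. Of the 14 cathepsins, 0 passed, 7 were higher and the median difference was 0.00 (from -0.31 to 0.48 over 25 alternatives).

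Gm9733 rose in YFP+ macrophages too. It is a predicted gene whose neighbours in the RefSeq table are Sirpb1a, Sirpb1b and Sirpb1c, signal regulatory proteins of the myeloid surface. Its levels were -3.36, -3.70 and -3.26 in YFP+ and -6.09, -7.03 and -6.56 in YFP-. All YFP+ arrays were above background and none of the YFP- arrays was. The log2 difference was 3.12 (SE 0.37, limma adjusted p = 0.0108), the bound is at least 2.27-fold, and the difference was 3.20 within slide 2 and 2.82 within slide 3. No run of more than 9 bases is shared between its probe and those of Sirpb1a and Sirpb1b. Read position by position, though, a Sirpb1a probe at chr3:15378994-15379053 matches the Gm9733 probe at most bases. Cross-hybridisation between them was not tested. Sirpb1a had a difference of 1.19 (limma adjusted p = 0.33). Sirpb1b had a difference of 1.49 (limma adjusted p = 0.214) and its groups did not overlap.

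Fosl1 fell in YFP+ macrophages. It encodes Fra-1, a partner of Jun proteins in the transcription factor AP-1. Its levels were -6.91, -6.91 and -6.99 in YFP+ and -3.96, -5.13 and -4.23 in YFP-. No YFP+ array and 2 YFP- arrays were above background. The log2 difference was -2.50 (SE 0.36, limma adjusted p = 0.0383), a level at least 1.23-fold lower in YFP+, with -2.69 within slide 2 and -3.03 within slide 3. The other 6 Fos and Jun genes did not pass and lay between -0.20 for Jun and 0.53 for Fosl2.

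Gm36913, a long noncoding RNA gene of chromosome 19, fell as well. Its levels were -6.99, -6.98 and -7.18 in YFP+ and -4.15, -4.25 and -5.06 in YFP-, again with 0 and 2 arrays above background. The log2 difference was -2.56 (SE 0.32, limma adjusted p = 0.0108), at least 1.19-fold lower in YFP+, and -1.92 and -3.03 within slides 2 and 3.

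**Figure D1:**
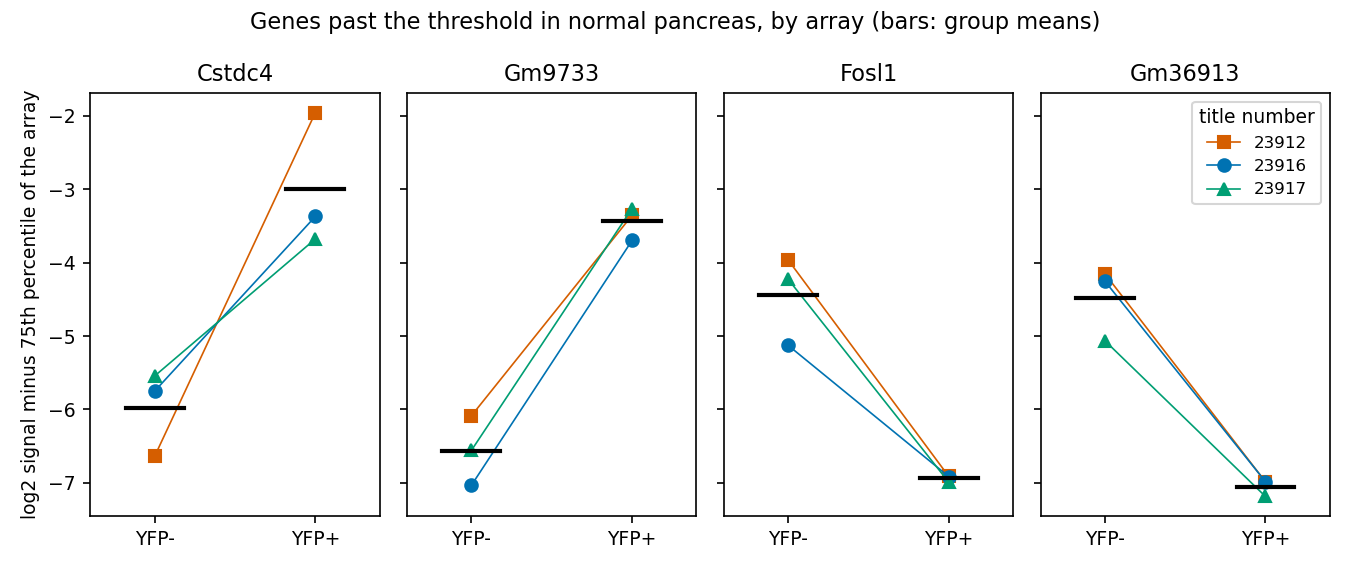
Level of 4 genes past the threshold on each normal pancreas array, as log2 signal minus the array's 75th percentile (y axis), in YFP- and YFP+ (x axis). Lines join arrays of the same title number and bars are group means; Cstdc4 and Gm9733 lie higher in every YFP+ array than in any YFP- array, and Fosl1 and Gm36913 lower.

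These calls shifted with the processing, including how dim signals were treated. A fit with array weights called 1162 genes, 836 higher in YFP+ and 326 lower. With a background correction by normexp, which pulls dim values together, 0 genes passed. Other scalings gave 4 genes (by the median), 16 (by quantile normalization, 13 higher and 3 lower) and 15 (the deposited normalized values, 12 higher and 3 lower). Under normexp the difference was 1.09 for Cstdc4 (limma adjusted p = 0.319), 1.05 for Gm9733 (0.155), -0.49 for Fosl1 (0.772) and -0.70 for Gm36913 (0.228). A fit on the 6 normal arrays alone called 0 genes, and so did a filter that asks for signal above background on all 6. Of the alternatives with a test, Cstdc4 passed in 11 of 22, Gm9733 in 15 of 22, Fosl1 in 9 of 21 and Gm36913 in 14 of 21, and each kept its sign in all of them. Leaving arrays out could not have turned these signs, because the groups of these genes did not overlap. With slide as a fixed block 2 genes passed, both lower in YFP+, and Fosl1 was one of them.

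The number of calls rested on 1 array more than on any other choice of replicates. Without both arrays of 23912, 221 genes passed (0.914%), 179 higher in YFP+ (0.741%) and 42 lower (0.174%). Without the YFP- array of 23912 alone, 333 passed (1.38%), 262 higher (1.08%) and 71 lower (0.294%), and 199 genes passed in both (0.823%). Leaving out YFP+ 23916 gave 0 genes and both arrays of 23916 gave 1, while the other exclusions gave 4 to 7. Where an exclusion left 2 arrays in a population, these were assumed to vary like those of the other groups in the fit.

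**Figure D2:**
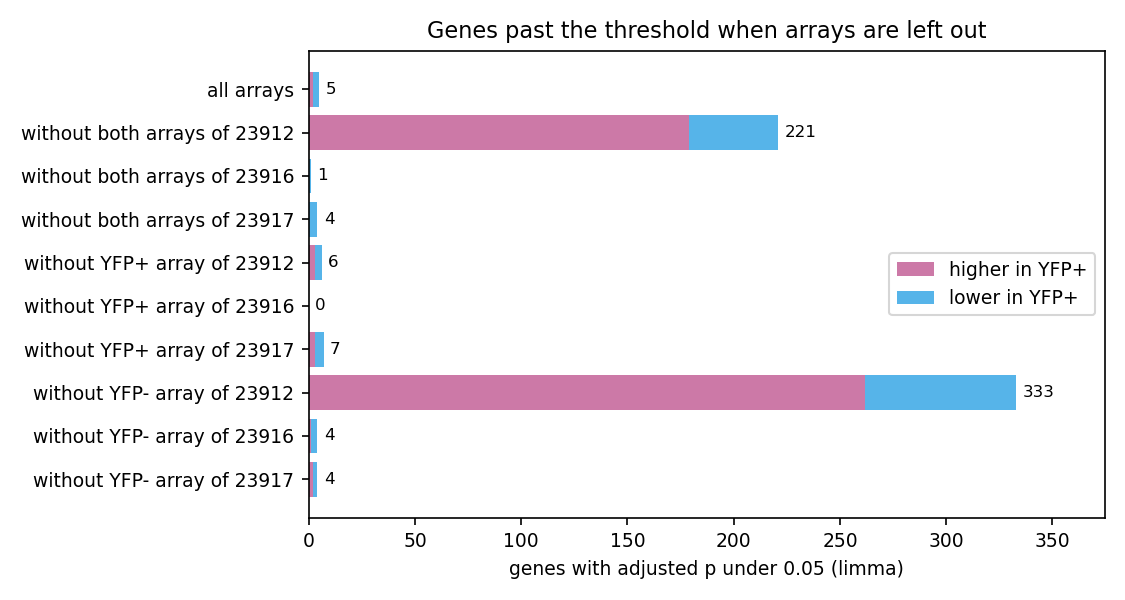
Number of genes with an adjusted p under 0.05 in normal pancreas (x axis) with all arrays and with single arrays or title numbers left out (y axis), split into higher and lower in YFP+. The count is 5 with all arrays, 221 without both arrays of 23912 and 333 without the YFP- array of 23912.

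Without both arrays of 23912, the genes past the threshold included 4 of the 33 monocyte genes (F10, Itgax, Napsa and S100a6) and 1 of the 23 dendritic cell genes (Btla), beside the 0.741% of all genes that were higher. The monocyte list was not alone in this. Also higher were 2 of 17 MHC class II genes and 2 of 25 transcription factors. Growth factor and matrix genes had 3 of 29 higher and 1 lower, and AP-1 and immediate early genes 2 of 18 higher and 1 lower. Tissue-resident macrophage genes had 0 of 32. Itgax, the integrin CD11c, differed by 2.40 without both arrays of 23912 (limma adjusted p = 0.00506) and by 1.88 with all arrays (0.109). With all arrays its levels were 1.27, 0.88 and 1.25 in YFP+ and 0.43, -1.68 and -0.98 in YFP-, so the groups did not overlap and YFP- 23912 was the highest of its group. The difference was 2.25 within slide 2 and 0.82 within slide 3. Bhlhe40, a transcription factor of activated macrophages and lymphocytes, was at 2.72, 2.40 and 2.14 in YFP+ and at 2.02, -0.31 and -0.13 in YFP-. Its difference was 2.49 without 23912 (limma adjusted p = 0.00103) and 1.89 with all arrays (0.141), but 2.85 within slide 2 and 0.12 within slide 3.

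Genes that pass only without 23912 are chosen by that exclusion, so how its arrays lie in them is given as a description. H2-DMb2, a chain of the peptide editor of MHC class II, was at 3.98, 4.51 and 4.74 in YFP+ and at 3.59, 2.09 and 2.46 in YFP-. Its difference was 2.35 without 23912 (limma adjusted p = 0.00105) and 1.70 with all arrays (0.103), with 1.52 and 1.15 within slides 2 and 3. The chemokine gene Ccl17 differed by 1.83, the macrophage elastase gene Mmp12 by 1.90 (limma adjusted p = 0.00578) and the urokinase receptor gene Plaur by 2.15 (0.00333). Nr4a3, an orphan nuclear receptor of the immediate early class, differed by 2.93 (0.0131). F10, the gene of coagulation factor X, differed by 2.28 (0.0137) and S100a6 by 1.24 (0.0395). Lower in YFP+ in that fit were the cholecystokinin receptor gene Cckar, at -2.82 (0.00233), and the islet hormone gene Sst, at -3.01 (0.0124). With all arrays Sst differed by -2.58 (limma adjusted p = 0.406), and by -5.77 and 0.78 within slides 2 and 3. Csf1, a growth factor of macrophages, was at -1.97 without 23912 (0.039) and at -0.96 with all arrays (0.704), and did not pass without YFP- 23912 alone (0.105). Other probes of Csf1 differed by -1.32 and -0.17 with all arrays.

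The next genes by p-value did not pass over all arrays. The rule for named genes takes the 15 higher and the 15 lower with a RefSeq symbol, non-overlapping groups and signal above background on every array of a population, so that the lack of overlap is no finding. Lgals3, the gene of galectin-3, was at 2.96, 2.78 and 3.03 in YFP+ and at 1.97, 1.75 and 1.89 in YFP-. Its difference was 1.05 (SE 0.19, limma adjusted p = 0.103), and 1.06 within both slides. The spread in each population was 0.13 and 0.12 (SD, n = 3).

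Nfil3, a transcription factor gene of innate lymphoid and dendritic cell development, was at 0.78, 1.102 and 0.70 in YFP+ and at -0.48, -0.24 and -0.30 in YFP-. The difference was 1.20 (SE 0.22, limma adjusted p = 0.103), with 1.08 and 1.17 within slides 2 and 3. Me2, a malic enzyme of mitochondria, differed by 1.04 in the fit and by 1.04 within each of these slides. Lgals3, Nfil3 and Me2 thus had a like difference on both slides, including the one with YFP- 23912. The equal sign on both slides follows from the rule that picked these genes and is no finding. Adora2b, a receptor for adenosine, differed by 1.60 (SE 0.29), with 1.30 and 1.13 within the slides. Ddr1, a collagen receptor, differed by 2.45 (SE 0.47), with 3.11 and 1.21. Klrb1b, a C-type lectin of NK and dendritic cells, was at -0.48, -0.48 and -0.46 in YFP+ and at -1.66, -3.04 and -1.94 in YFP-. Its difference was 1.74 (limma adjusted p = 0.104).

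On the lower side, Nectin2 came nearest to the threshold. It encodes an adhesion molecule that is a ligand of TIGIT and DNAM-1. Its levels were -3.43, -3.50 and -2.97 in YFP+ and -1.48, -1.98 and -1.996 in YFP-. The difference was -1.48 (SE 0.23, limma adjusted p = 0.0538), with -1.44 and -1.49 within slides 2 and 3, but a second probe of the gene differed by -0.03. Acta2, the smooth muscle actin of stellate cells and myofibroblasts, differed by -2.12 (SE 0.39, limma adjusted p = 0.103), Cckar by -2.02 and Rab25, a small GTPase gene of epithelia, by -2.28. Col18a1, a basement membrane collagen gene, differed by -2.11 with one probe and -0.51 with the other. Lgi2 was below background on all YFP+ arrays and above it on all YFP- arrays, and was at least 3.03-fold lower (limma adjusted p = 0.109).

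**Figure D3:**
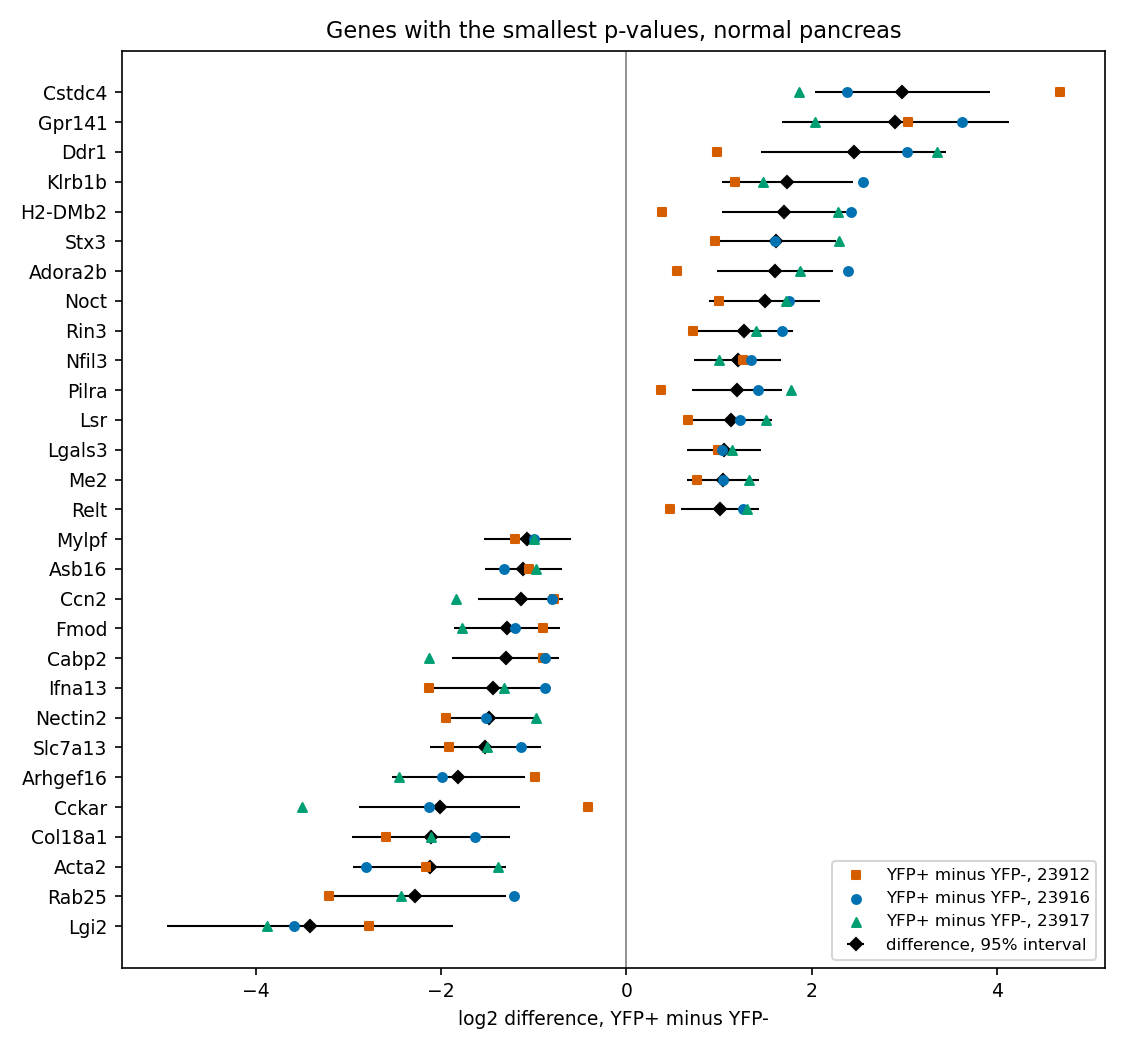
Log2 difference YFP+ minus YFP- (x axis) of the named genes with the smallest p-values in normal pancreas (y axis); diamonds with bars are the fitted differences with 95% intervals, colored points the differences between arrays of the same title number. Of the genes plotted, Cstdc4 alone passed the adjusted threshold.

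Gene lists are described by counts and medians, to be read against all genes tested, of which 40.04% were higher in YFP+ and 13.2% had groups that did not overlap (6.38% higher and 6.83% lower). In every list 0 genes passed the threshold, apart from Cstdc4 and Fosl1 in the lists given above. Scaling the arrays by their median moves the median of all genes from -0.10 to 0.04, so differences of this size have no settled sign. The median within slide 2 had the opposite sign to that within slide 3 in 26 of the 40 lists. In bulk samples, fewer cells of a type and less RNA per cell cannot be told apart.

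The list of monocyte and recently monocyte-derived genes, which earlier results of these arrays helped to choose, had 26 of 33 genes higher in YFP+. In 14 of them (42.4% of the list) the YFP+ arrays lay above the YFP- arrays, and in 0 below. The median difference was 0.65, 0.59 within slide 2 and 0.57 within slide 3, and it ran from 0.41 to 0.84 over 25 alternatives. The mean level of the list was 1.98, 2.002 and 2.08 in YFP+ and 1.69, 1.27 and 1.46 in YFP-, without overlap. In tumor the median of the same genes was -0.04.

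Single members of this list show the sizes. S100a4, a calcium-binding protein gene, was at 4.93, 4.95 and 4.96 in YFP+ and at 4.50, 4.06 and 4.20 in YFP-, a difference of 0.69 (SE 0.17, limma adjusted p = 0.155). Ccr2, the receptor that takes monocytes out of the bone marrow, was at 2.27, 1.84 and 2.29 in YFP+ and at 1.62, 0.02 and 1.04 in YFP-, a difference of 1.24 (limma adjusted p = 0.269). Fn1, fibronectin, was at 4.24, 4.36 and 4.67 in YFP+ and at 3.58, 2.94 and 3.40 in YFP-, a difference of 1.12 (limma adjusted p = 0.166). In each of these genes every YFP+ array lay above every YFP- array. Napsa, an aspartic protease gene, differed by 1.76 (limma adjusted p = 0.132), with 2.19 within slide 2 and 0.65 within slide 3.

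Tissue-resident macrophage genes did not separate the populations. Of 32 genes 4 were higher and 28 lower in YFP+, in 0 the groups did not overlap, and the median was -0.39. The median was -1.57 within slide 2 and 0.92 within slide 3, opposite in sign. The low arrays of 23912 lay on slide 2 in YFP+ and on slide 3 in YFP-. Lyve1, a hyaluronan receptor gene of resident macrophages, was at 0.44, 2.62 and 1.57 in YFP+ and at -0.05, 3.17 and 2.75 in YFP-. Its difference was -0.41 with a 95% interval from -2.66 to 1.84. Timd4, a receptor for dying cells, was at -0.50, 1.56 and 0.51 and at -0.44, 1.89 and 1.90, a difference of -0.60 (interval from -2.22 to 1.02). Cd163, a hemoglobin scavenger receptor gene, differed by -0.45 (interval from -2.08 to 1.18). The intervals leave room for differences of more than 2-fold in these genes.

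None of the growth factor receptors passed the threshold. Flt3 itself, the gene whose promoter activity the YFP records, was at 0.01, -1.27 and -0.998 in YFP+ and at 0.63, -1.56 and -1.54 in YFP-. Its difference was 0.07 (interval from -1.13 to 1.27, limma adjusted p = 0.982), it was 1.55 within slide 2 and -1.63 within slide 3, and its 3 probes gave 0.84, 0.07 and -0.32. Csf1r, the receptor that macrophages need for survival, was at 5.48, 6.16 and 6.07 in YFP+ and at 5.57, 6.43 and 6.53 in YFP-, a difference of -0.28 (interval from -0.87 to 0.32). Csf2rb, the shared chain of the receptors for GM-CSF, IL-3 and IL-5, was at 3.36, 3.23 and 3.32 in YFP+ and at 3.02, 2.43 and 2.61 in YFP-. Its difference was 0.62 (SE 0.17, limma adjusted p = 0.202). The partner chain Csf2ra differed by 0.54 (limma adjusted p = 0.543), and in both genes the groups did not overlap. Without YFP- 23912 alone, Csf2rb differed by 0.78 and passed (limma adjusted p = 0.0261).

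Antigen presentation genes were mostly higher in YFP+. Of 17 MHC class II presentation genes 13 were higher, with YFP+ above YFP- in 6 and below in 0, and the median was 0.24 (0.10 and 0.26 within slides 2 and 3). The sign held over 25 alternatives, from 0.10 to 0.38. H2-DMa, the partner of H2-DMb2, was at 5.75, 5.85 and 6.15 in YFP+ and at 5.26, 5.16 and 5.28 in YFP-, a difference of 0.68 (SE 0.17, limma adjusted p = 0.168). The class II beta chain gene H2-Ab1 was at 6.19, 6.28 and 6.12 in YFP+ and at 5.53, 5.78 and 5.97 in YFP-, a difference of 0.44 (limma adjusted p = 0.629). A second probe of H2-Ab1 differed by 0.18. Of 13 MHC class I presentation genes 11 were higher, with a median of 0.17 and 1 without overlap. Of 13 co-stimulation and checkpoint ligands 8 were higher, with a median of 0.05 that turned sign under 4 of 25 alternatives.

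Of 25 transcription factors of macrophages and monocytes 14 were higher, with a median of 0.18 that turned sign under 2 of 25 alternatives. Batf3, a factor of conventional dendritic cells, was at 1.76, 1.76 and 1.94 in YFP+ and at 1.32, 0.54 and 0.67 in YFP-, a difference of 0.97 (limma adjusted p = 0.219). Irf5, a factor of inflammatory macrophages, differed by 0.63 (limma adjusted p = 0.411). Of 18 AP-1 and immediate early genes 10 were higher, with a median of 0.05 that turned sign under 5 of 25 alternatives. Nr4a3 was at -3.33, -2.96 and -4.16 in YFP+ and at -4.31, -6.47 and -6.51 in YFP-. Its difference with all arrays was 2.28 (limma adjusted p = 0.132), 3.18 within slide 2 and 0.16 within slide 3.

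Among inflammatory genes, 21 NF-kB subunits and targets had 18 members higher in YFP+, and in 9 of them the groups did not overlap. The median was 0.27, 0.36 and 0.28 within slides 2 and 3, and from 0.15 to 0.44 over 25 alternatives. Tnip3, an inhibitor of NF-kB signaling, was at 0.97, 1.24 and 1.19 in YFP+ and at 0.58, 0.33 and 0.02 in YFP-, a difference of 0.82 (SE 0.18, limma adjusted p = 0.115). The adhesion molecule gene Icam1 was at 0.11, 0.22 and -0.04 in YFP+ and at -0.60, -0.59 and -0.81 in YFP-, a difference of 0.76 (limma adjusted p = 0.367). Il1b, the interleukin 1 beta gene, differed by 0.63 (limma adjusted p = 0.252). In these 3 genes YFP+ lay above YFP- on every array. The cytokine list had 11 of 17 genes higher and a median of 0.14, which turned sign under 2 of 25 alternatives.

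Chemokine receptors had 12 of 18 genes higher, 4 of them without overlap, and a median of 0.17 that turned sign under 1 of 25 alternatives. Chemokine ligands had 11 of 27 higher, 1 without overlap, and a median of -0.05 that turned sign under 6. That gene was Ccl17, at 3.39, 3.47 and 3.25 in YFP+ and at 2.98, 1.76 and 1.31 in YFP-, a difference of 1.36 (limma adjusted p = 0.131), 2.08 within slide 2 and 0.27 within slide 3. Alternative activation genes had 9 of 15 higher and a median of 0.16.

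Uptake and recognition genes gave mixed counts. Of 18 scavenger and apoptotic cell receptors 5 were higher and the median was -0.24, with both signs within slides. Complement genes had 3 of 20 higher and a median of -0.37, which was -1.21 within slide 2 and 0.64 within slide 3. C-type lectins had 9 of 16 higher, 5 of them without overlap and none lower without overlap, with a median of 0.08. Toll-like receptors and adaptors (19 genes, median 0.02), Fc receptors (10 genes, median -0.01) and iron and heme genes (14 genes, median -0.17) had 0 genes without overlap. Interferon-stimulated genes had 10 of 26 higher and a median of -0.14. The median turned sign under 3 of 25 alternatives for the C-type lectins, 5 for the Toll-like receptors, 13 for the Fc receptors and 2 for the iron and the interferon genes.

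Among metabolic genes 0 passed the threshold. Of 22 glycolysis and hypoxia genes 17 were higher, 5 of them without overlap, and the median was 0.21 (0.13 and 0.26 within slides 2 and 3, from 0.10 to 0.35 over 25 alternatives). Pgk1, a phosphoglycerate kinase gene, was at 2.48, 2.19 and 2.05 in YFP+ and at 1.77, 1.46 and 1.30 in YFP-, a difference of 0.73 (SE 0.20, limma adjusted p = 0.194). Pkm, pyruvate kinase, was at 2.74, 3.16 and 3.05 in YFP+ and at 2.35, 2.41 and 2.56 in YFP-, a difference of 0.54 (limma adjusted p = 0.367). In both genes all YFP+ arrays lay above all YFP- arrays. Of 25 oxidative phosphorylation genes 21 were higher, and the median was 0.10 (-0.02 and 0.32 within the slides). Lipid handling and cholesterol genes had 17 of 25 higher and a median of 0.10, which turned sign under 1 of 25 alternatives.

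Proliferation genes had 21 of 24 members higher in YFP+ and a median of 0.42, but this was 1.37 within slide 2 and -0.75 within slide 3. Mki67, a marker of cycling cells, was the 1 member without overlap, at 1.41, 0.77 and 1.19 in YFP+ and at 0.63, -0.48 and 0.05 in YFP-. Its difference was 1.06 (SE 0.27, limma adjusted p = 0.18). Growth factor and matrix remodelling genes had 10 of 29 higher and a median of -0.31, which turned sign under 3 of 25 alternatives. Mmp12 was at 3.55, 3.07 and 3.29 in YFP+ and at 2.97, 1.18 and 1.39 in YFP-, a difference of 1.46 (limma adjusted p = 0.166), with 2.15 and 0.32 within slides 2 and 3, and a second probe differed by -0.14.

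**Figure D4:**
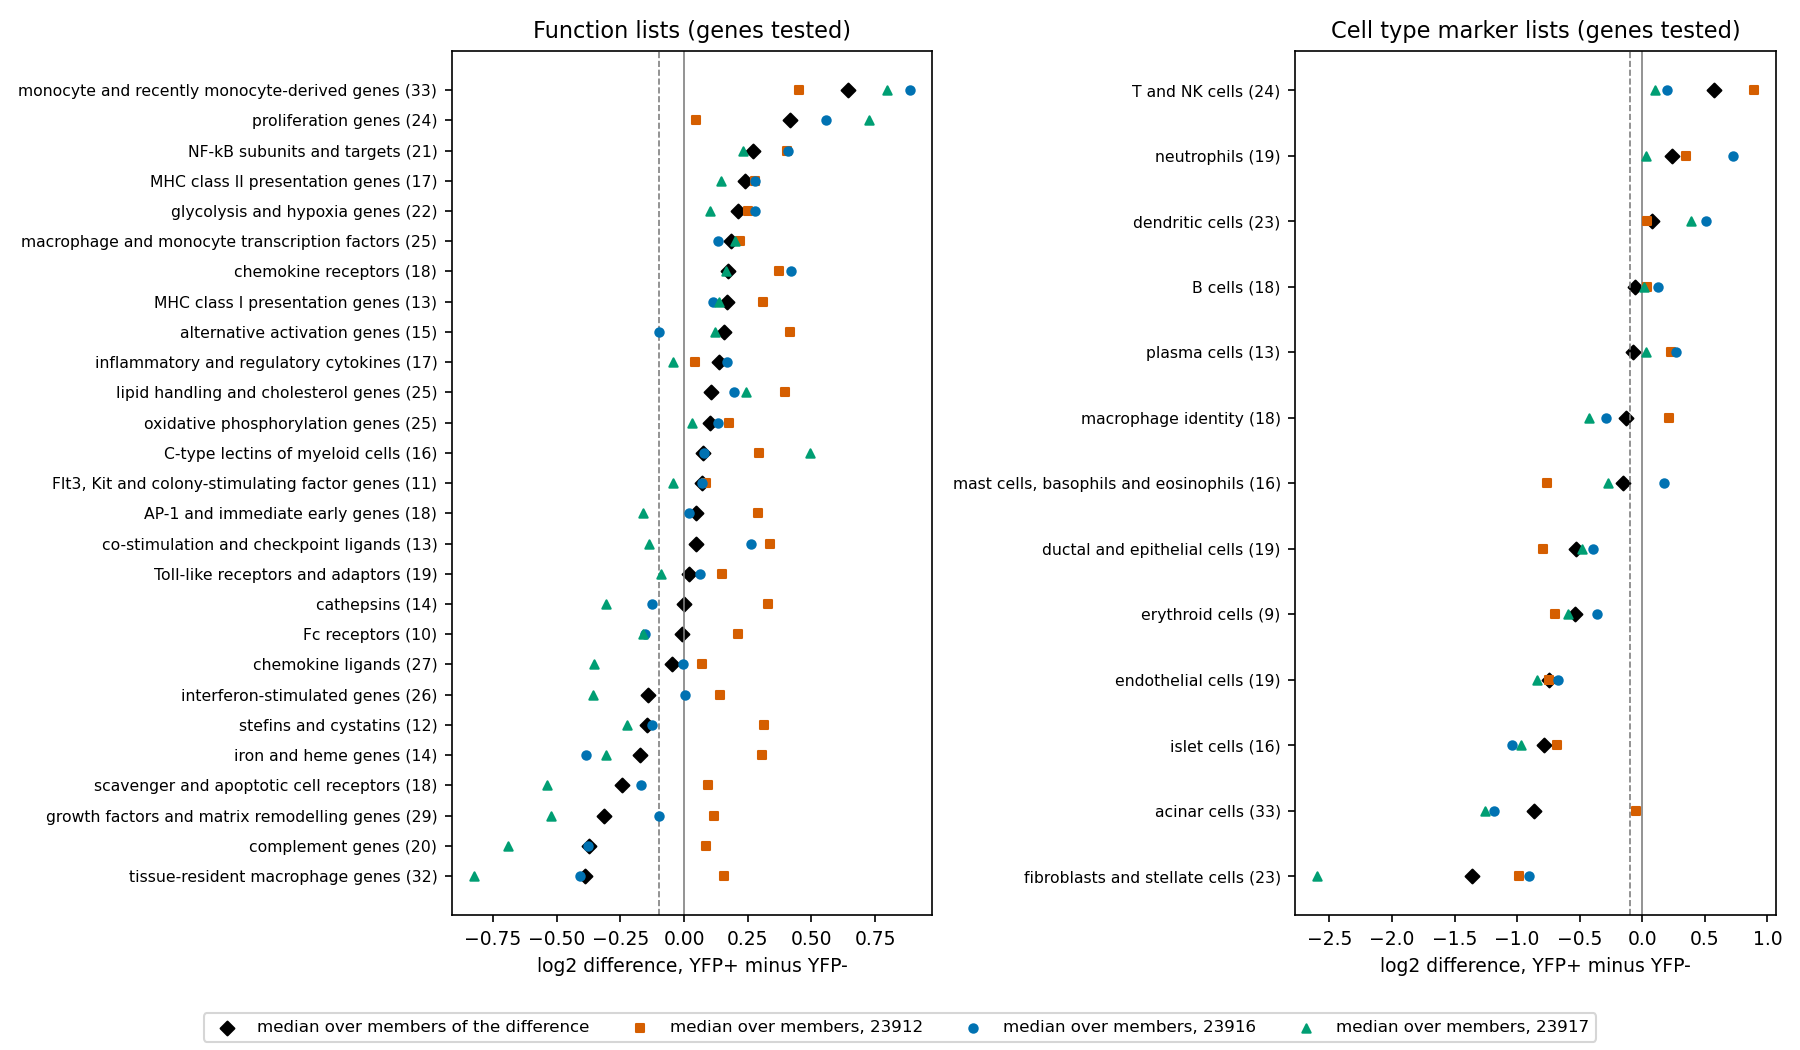
Median log2 difference YFP+ minus YFP- (x axis) over the members of each gene list in normal pancreas (y axis, number of genes tested in brackets), for function lists and for cell type marker lists. Diamonds are medians of the fitted differences, and colored points those between arrays of the same title number. The dashed line is the median of all genes, -0.10. The monocyte list (0.65), which earlier results of these arrays helped to choose, lies highest among the function lists.

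Markers of other cell types differed between the sorted populations beside these results. Fibroblast and stellate cell genes had 1 of 23 members higher in YFP+ and a median of -1.36, with -3.39 within slide 2 and -0.14 within slide 3. Their mean level was -2.32, -0.97 and -1.40 in YFP+ and -1.42, -0.02 and 0.77 in YFP-. Col1a1, the gene of type I collagen, differed by -2.24 (limma adjusted p = 0.195). Acinar genes had 0 of 33 higher and a median of -0.86, at mean levels of 3.25, 2.87 and 3.36 in YFP+ and 3.45, 4.03 and 4.66 in YFP-. Their median was -1.46 within slide 2 and 0.10 within slide 3, opposite in sign. Islet genes had 0 of 16 higher and a median of -0.79, with 6 of 16 lower without overlap. Pyy, a peptide hormone gene, was below background on all YFP+ arrays and at -2.14, -2.62 and -0.98 in YFP-, at least 7.06-fold lower in YFP+ (limma adjusted p = 0.122). Ductal (median -0.53), endothelial (-0.74) and erythroid genes (-0.53) were lower too, and the sign of the fibroblast, islet, ductal, endothelial and erythroid medians held over 25 alternatives. The part of these cells' RNA in the lower genes above, such as Acta2, Col18a1, Cckar and Rab25, was not tested.

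On the other side, T and NK cell genes had 17 of 24 members higher in YFP+ and a median of 0.57, which was 1.99 within slide 2 and -0.45 within slide 3. Their mean level was 0.50 on YFP+ 23912 and -0.94 on YFP- 23912, and between -2.27 and -1.32 on the other arrays. Gzmb, the granzyme B gene, was at 3.07, -2.49 and -7.19 in YFP+ and at -6.85, -7.13 and -3.30 in YFP-. Dendritic cell genes had 13 of 23 higher, 4 of them without overlap, and a median of 0.08, with 0.96 and -0.24 within slides 2 and 3. Clec9a, a receptor of conventional dendritic cells, was at -4.23, -4.33 and -4.20 in YFP+ and at -4.51, -6.95 and -6.48 in YFP-, at least 1.25-fold higher (limma adjusted p = 0.474). Genes shared with dendritic cells among the higher ones, such as Itgax, Batf3, H2-DMb2, Klrb1b and Ccl17, stand beside these counts, and the part of dendritic cells in them was not tested. Neutrophil genes had a median of 0.24, B cell genes -0.06, plasma cell genes -0.07 and mast cell genes -0.16, each with a sign that turned under at least 3 of 25 alternatives.

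**Figure D5:**
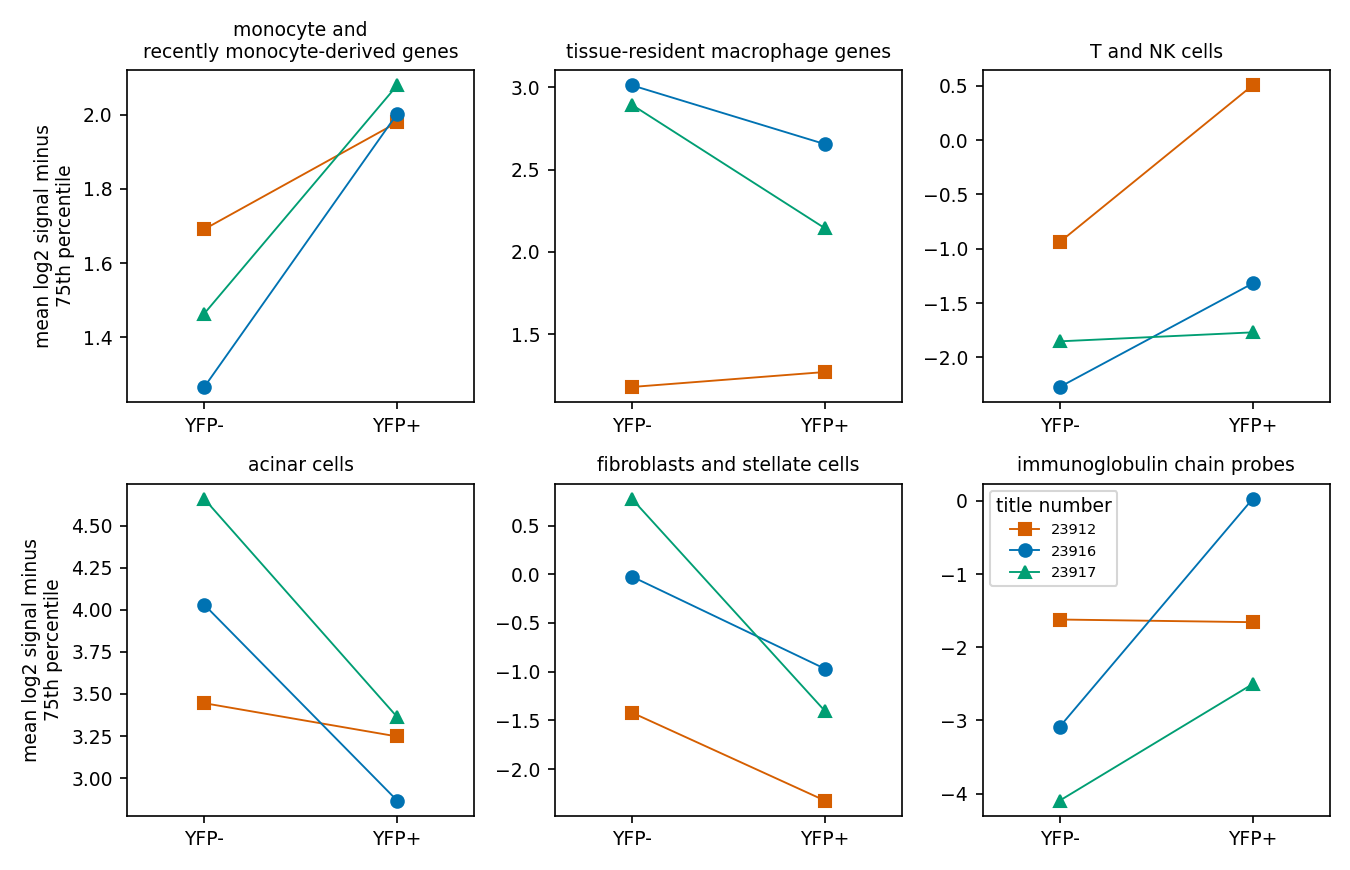
Mean log2 level of gene lists on each normal pancreas array (y axis, log2 signal minus the array's 75th percentile) in YFP- and YFP+ (x axis), with arrays of the same title number joined by a line. Monocyte genes lie higher on every YFP+ array, and resident genes are low on both arrays of 23912.

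Set against tumor, the YFP difference itself differed for few genes. In tumor 577 genes passed the threshold (2.39%), on 5 arrays a population, and the difference between the tissues' YFP differences passed for 25 genes (0.103%). Of these, 16 were positive, but in 14 of the 16 the larger YFP difference was the one in tumor, and 10 were above background on no normal array. Cstdc4 differed by 2.97 in normal pancreas and by -0.69 in tumor, and Gm9733 by 3.12 and 0.07. Both tissue differences passed, at 3.66 (SE 0.56) and 3.05 (SE 0.47), each with a limma adjusted p of 0.0213. With a filter for signal above background on 3 of the 6 normal arrays, 0 tissue differences passed. For Fosl1, at -2.50 and -0.67, the tissue difference did not pass (limma adjusted p = 0.239). Lgals3 had 1.05 in normal pancreas and 0.02 in tumor, and the difference between these did not pass either (limma adjusted p = 0.178). S100a6 had 0.98 and -0.51, a tissue difference of 1.48 (SE 0.28, limma adjusted p = 0.0639). Acta2 was lower in YFP+ in both tissues, at -2.12 and -2.97.

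Promoters, from 250 bases before to 50 after the start of a gene, were taken from RefSeq (build GRCm38.p6) and searched on both strands. A block ACCTTTAAAACCC, the longest run of the Cstdc4 promoter that at least 7 stefin genes share and chosen for that, was found in 7 of the 16 listed stefin and cystatin genes with a promoter (43.8%) and in 9 of 27025 genes in all (0.0333%). The promoters of Cstdc4, higher in YFP+, and Stfa2, not higher, are shown because both hold the block (capitals), from 32 bases before the start in each. They lie at chr16:36183962-36184261 on the plus strand and chr16:36408314-36408613 on the minus strand.
Cstdc4: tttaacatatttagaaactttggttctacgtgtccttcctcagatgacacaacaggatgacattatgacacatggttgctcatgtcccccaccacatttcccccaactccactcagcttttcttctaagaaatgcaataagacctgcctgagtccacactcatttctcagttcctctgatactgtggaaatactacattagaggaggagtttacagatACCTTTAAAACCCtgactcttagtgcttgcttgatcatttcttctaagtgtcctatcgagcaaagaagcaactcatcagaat
Stfa2: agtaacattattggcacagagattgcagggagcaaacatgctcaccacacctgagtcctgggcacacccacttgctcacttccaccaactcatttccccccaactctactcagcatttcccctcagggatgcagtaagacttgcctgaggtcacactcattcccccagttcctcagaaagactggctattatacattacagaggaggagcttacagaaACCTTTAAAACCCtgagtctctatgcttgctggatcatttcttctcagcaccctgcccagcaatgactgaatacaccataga
The longest run that the Cstdc4 promoter shares with another stefin promoter is 33 bases, with Cstdc5. The Stfa3 promoter holds the block too, and neither it nor Stfa2 had the difference of Cstdc4.

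The letters GAGGAAGT, a form of the site of PU.1, the factor that myeloid cells need to form, were searched in the same windows. Of the genes higher in YFP+ at an unadjusted p under 0.05, 47 of 700 with a promoter held them (6.71%). Of those lower, 17 of 465 did (3.66%), and of all tested genes with a promoter 521 of 14286 (3.65%). These shares are descriptions and no test was made of them. The letters TGANTCA, a form of the AP-1 site, were in 8.71%, 7.53% and 7.43% in the same order. Listed genes with the PU.1 letters lay on both sides: the acinar gene Pla2g1b, for one, differed by -1.39 (limma adjusted p = 0.249). Tnip3 and S100a4, both higher in YFP+, are shown as genes of the NF-kB and monocyte lists with the PU.1 letters, which read ACTTCCTC on the strand printed (capitals). They lie at chr6:65590148-65590447 and chr3:90603520-90603819, both on the plus strand.
Tnip3: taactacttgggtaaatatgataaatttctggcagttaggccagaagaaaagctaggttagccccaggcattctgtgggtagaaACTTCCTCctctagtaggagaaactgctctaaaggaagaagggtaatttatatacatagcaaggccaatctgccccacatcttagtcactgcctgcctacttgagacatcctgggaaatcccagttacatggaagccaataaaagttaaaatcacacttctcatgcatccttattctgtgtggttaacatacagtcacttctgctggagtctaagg
S100a4: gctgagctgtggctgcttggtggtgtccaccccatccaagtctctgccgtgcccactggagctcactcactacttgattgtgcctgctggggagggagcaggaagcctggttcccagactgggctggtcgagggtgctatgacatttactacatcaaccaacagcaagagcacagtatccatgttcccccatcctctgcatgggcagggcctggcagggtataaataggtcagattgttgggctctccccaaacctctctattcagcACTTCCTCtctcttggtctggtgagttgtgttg
In Tnip3 the letters lie far from the start and in S100a4 next to it, and a match says nothing about binding.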

How the data were processed

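Per the file headers, the deposited scanner files were made with Agilent Feature Extraction 11.5.1.1 and hold red-channel intensity, background subtracted and spatially detrended. The deposited normalized table is on a log2 scale. Its columns share their distribution within 0.0069, and each correlates at r = 0.9957 to 0.9999 with its own array's signal. How it was made is not given in the sources used here.

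Control and outlier spots were left out of 44397 spots an array, and repeated spots were averaged by probe (39429 probes). Intensity was taken to log2, and each array's 75th percentile was subtracted. Probes well above background on at least 3 of 16 arrays were kept, and the brightest probe stood for a gene. Genes were named through RefSeq accessions (28758 probes), symbols (2029) or synonyms (162), and otherwise as in the files.

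Groups were compared with limma 3.58.1 (R 4.3.3) with a mean for each of the 4 groups, fitted to the 16 arrays together, two-sided, with Benjamini-Hochberg adjustment over 24168 genes. The procedure was tested on simulated data. A log2 difference had a standard error of 0.35 in the median gene. Signal over background sets the depth: 14.6% to 21.4% of spots on the normal arrays lay at a surrogate value.

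Named genes are those past the threshold, the 15 higher and 15 lower with the smallest p under the conditions given in the text, the 4 of each list with the smallest p, macrophage markers, and the stefin, Fos and Jun families. Others singled out are given as such. The comparison and the gene lists were chosen with earlier results of these data known. One gene past the threshold is not reported here.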

Additional observations from a re-analysis of the deposited data

Results flagged for a closer look

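The YFP difference of 4 named genes in normal pancreas differed from that in tumor, by a test of the difference between the 2 differences in the same limma fit, adjusted over all genes. For Cstdc4 the normal minus tumor value was 3.66 (adjusted p = 0.0213), from 2.97 in normal pancreas and -0.69 in tumor. For Gm9733 it was 3.05 (adjusted p = 0.0213), from 3.12 and 0.07. For Gm36913 it was -2.45 (adjusted p = 0.0337), from -2.56 and -0.11. For Rab25 it was -3.40 (adjusted p = 0.0406), from -2.28 and 1.12, neither of which passed within its tissue. With a filter for signal above background on 3 of the 6 normal arrays, 0 genes passed this test of the tissue difference.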

How the results depend on the processing

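Counts of genes past the threshold are given for the YFP difference in normal pancreas (5) and then, where it moved by over 1.5 times, for the normal minus tumor difference (25). Background correction by normexp gave 0. Quantile normalization gave 16 and the deposited normalized values 15. Without a filter on dim probes 10 passed, with signal above background on 3 of the 6 normal arrays 2 and 0, and on all 6 normal arrays 0 and 0. A fit on the 6 normal arrays alone gave 0. With slide as a fixed block 2 and 9 passed, with array weights 1162 and 358, and with a variance trend and robust fit 13. Leaving out arrays or title numbers gave 0 to 333 and 9 to 64. Median scaling, slide as a random block and the mean of a gene's probes kept both counts within 1.5 times. The cause of these shifts was not tested.

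As the title numbers recur in both populations, a fit with the replicate block was made: it called 0 genes and 16 genes. Deviations of arrays with the same number correlated at r = 0.28, 0.13 and -0.02, against at most -0.04, 0.07 and 0.25 with other numbers. The numbers 23912 and 23916 correlated best with themselves and 23917 did not, so the pairing was not borne out for all 3.

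Single genes turned sign where the difference was small. Flt3 was at -0.093 with slide as a fixed block and from -0.31 to 0.80 over the fits that left arrays out. Over the latter, Lyve1 ran from -1.42 to 0.19 and Jun from -0.48 to 0.054. The dim probes, at or near background in 1 population, and 3 arrays a population limit what can be read: all 4 named calls were lost under normexp. Their signs held under every alternative run, but the runs that left arrays out could not have turned them, because the groups did not overlap.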

Other observations

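Immunoglobulin chain genes, a group defined from the probe descriptions after values had been seen, were mostly higher in YFP+ macrophages of normal pancreas. Of 150 such probes or genes 130 were higher, with a median log2 difference of 1.50. In 12 the YFP+ arrays lay above the YFP- arrays and in 1 below, beside 6.38% and 6.83% of all genes. With limma 0 passed the threshold. An unadjusted p under 0.05 was found for 48, all of them higher, beside 4.47% of all genes that were higher at that p. Their mean level was -1.66, 0.03 and -2.50 in YFP+ and -1.62, -3.09 and -4.10 in YFP- (23912, 23916 and 23917). YFP- 23912 was thus as high as the YFP+ array of that number. The median was 2.57 within slide 2 and -0.56 within slide 3. Without both arrays of 23912, 19 passed the threshold, all higher, with a median of 2.15, beside the 0.741% of all genes that were higher in that fit. In tumor the median of the same group was 3.07. Plasma cell markers as a list did not rise: 6 of 13 were higher and 7 lower in YFP+, with a median of -0.07. This list shares Bhlha15 with the acinar list, and the lowest difference was -1.89 in both lists. Acinar genes had 0 of 33 higher and a median of -0.86. The part of acinar RNA in the plasma cell median was not tested. Among the higher plasma cell markers, Sdc1, the syndecan of plasma cells and epithelia, was at -1.60, -1.13 and -0.94 in YFP+ and at -2.64, -3.30 and -2.39 in YFP- (difference 1.55, limma adjusted p = 0.108). Jchain, the chain that joins secreted immunoglobulins, differed by 3.44 (limma adjusted p = 0.319).

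Btla, Spib and Il7r, past the threshold without both arrays of 23912, had large differences and dim levels. Each was the only member of its list to pass in that fit: 1 of 23 dendritic cell, 1 of 18 B cell and 1 of 24 T and NK cell genes. The share of all genes that were higher was 0.741%. With all arrays, 10, 10 and 7 members of these lists were lower in YFP+. Btla, an inhibitory receptor, differed by 3.99 in that fit (limma adjusted p = 0.0102). With all arrays it was at -1.04, -2.39 and -3.38 in YFP+ and at -2.33, -7.11 and -6.63 in YFP-, and its difference was 3.09 (limma adjusted p = 0.323). Spib, a transcription factor gene of B cells and plasmacytoid dendritic cells, differed by 4.03 without 23912 (limma adjusted p = 0.0271), and Il7r, the interleukin 7 receptor gene, by 3.55 (0.0485). In all 3 genes YFP- 23912 was the only YFP- array above background.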
